A study of Mus with 4 samples.

Results

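The genes described here are named after proteins of the mitochondrial ribosome and were chosen by name. They are every listed gene symbol that begins with *Mrpl* (large subunit) or *Mrps* (small subunit) followed by a digit. Subunit here means this prefix alone, and the place of each protein in the ribosome was not checked. A gene table of GRCm38.p6 holds 78 such protein-coding genes, 49 of the large and 29 of the small subunit. Of these, 65 carried at least 1 m6A peak in interscapular brown adipose tissue (iBAT), 42 of the large and 23 of the small subunit, among 10105 gene symbols with a peak in all. m6A is a methyl mark on adenosines of mRNA, and in MeRIP-seq a peak is a stretch of a transcript with more reads after immunoprecipitation with an m6A antibody (IP) than in the input RNA. The question was which m6A marks depend on WTAP, a regulatory subunit of the methyltransferase complex. Control *Wtap* flox/flox mice carry *Wtap* with an exon between loxP sites and no Cre. *Wtap*-BKO mice carry the same floxed alleles with *Ucp1*-iCre, which is expressed in brown adipocytes, so that the other cells of iBAT keep *Wtap*. Both were C57BL/6 mice on normal chow at 8 weeks of age. For each genotype the tissue of 8 mice was pooled per sample, with 1 IP, 1 input and 1 resulting peak list.

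The mitochondrial ribosome translates the few mRNAs of the mitochondrial genome, which encode core subunits of the respiratory chain and of ATP synthase. All of its proteins are encoded in the nucleus, translated in the cytosol and imported, and they assemble with mitochondrial rRNA into a large subunit, which forms peptide bonds, and a small subunit, which decodes the mRNA. Brown adipocytes are rich in mitochondria and rely on this system for the respiration that drives heat production. The m6A mark of an mRNA is typically found around the stop codon and in the last exon, and is read by proteins that affect the stability and translation of the mRNA.

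Peaks of one list were called found if a peak of the other overlapped them on that strand by 1 exonic base or more. The false discovery rate (FDR) and the fold enrichment of IP over input are the authors' values for a peak within 1 genotype. Because the 2 lists were called separately, they are set side by side mainly as a rank, the percentage of peaks in the same list that were weaker. Without replicates, genotypes were compared with no test. The intervals are 95% Wilson intervals and cover counting error only. The read depth behind the lists is unknown, and where no peak is listed, none met the authors' FDR limit of 0.05. *Wtap* itself had 4 peaks in each list, and each was found in the other list. Peaks do not measure transcript levels, so they do not check the genotype labels. In these bulk samples, fewer brown adipocytes, less of a transcript in each cell and fewer methylated copies of it cannot be told apart.

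More mitochondrial ribosomal protein genes had peaks in control iBAT than in *Wtap*-BKO iBAT. The *Wtap* flox/flox list held 81 peaks on 63 of these genes, and the *Wtap*-BKO list held 56 peaks on 44. That is 69.1 *Wtap*-BKO peaks per 100 control peaks, against 102 over all named genes. For the large subunit, 14 of 42 genes had peaks in the control list only (33.3%, interval 21.0% to 48.4%), 27 in both and 1 in the *Wtap*-BKO list only. For the small subunit, 7 of 23 genes had peaks in the control list only (30.4%, interval 15.6% to 50.9%), 15 in both and 1 in the *Wtap*-BKO list only. Over all 10105 symbols, 13.5% were in the control list only, 73.3% in both and 13.2% in the *Wtap*-BKO list only. Taken as 1 group of 65 genes, 32.3% were in the control list only (interval 22.2% to 44.4%) and 3.08% in the *Wtap*-BKO list only (interval 0.848% to 10.5%). The first share lay above and the second below that of all symbols, which neither interval held. In the small subunit alone, the interval for the *Wtap*-BKO list only, 0.772% to 21.0%, held the 13.2% of all symbols. All genes were read from 1 pooled sample per genotype, so the intervals do not cover variation between mice. The shares of the subunits overlapped within their intervals. Genes with a single peak can lose it more easily, and among symbols with exactly 1 control peak 25.4% had no *Wtap*-BKO peak. Of the mitochondrial ribosomal genes with 1 control peak, 15 of 47 (31.9%, interval 20.4% to 46.2%) had none, 11 of 32 in the large and 4 of 15 in the small subunit. That interval holds the background, so among genes with 1 control peak the excess was within counting error. This does not cover the 16 genes with 2 or more listed control peaks. Of those, *Mrpl43*, *Mrpl47*, *Mrpl50*, *Mrps12*, *Mrps23* and *Mrps24* had no *Wtap*-BKO peak, and the others did. The listed peaks of *Mrpl47* and of *Mrps12* overlapped each other, and 1 of those of *Mrps24* shared bases with another gene. Over all symbols, 1361 of 8770 with a control peak had no *Wtap*-BKO peak, and 1068 of these 1361 had exactly 1 control peak. Of all 63 mitochondrial ribosomal genes with a control peak, 33.3% (interval 22.9% to 45.6%) had no *Wtap*-BKO peak, against 15.5% of all symbols with one.

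**Figure D1:**
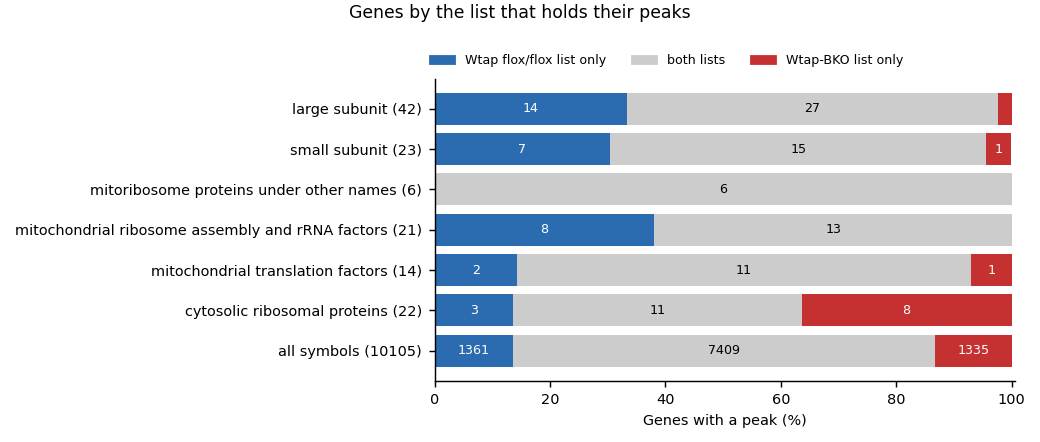
Share of genes (x axis, % of the genes with a peak) whose peaks were in the *Wtap* flox/flox list only, in both lists or in the *Wtap*-BKO list only, for both subunits, related gene lists and all symbols, with the number of genes printed in the bars and the total in brackets. The *Wtap* flox/flox only segment held 14 of 42 large subunit and 7 of 23 small subunit genes, against 13.5% of all symbols, and the unlabelled segment of the large subunit is 1 gene.

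The 14 large subunit genes with control peaks only were *Mrpl1*, *Mrpl3*, *Mrpl4*, *Mrpl10*, *Mrpl17*, *Mrpl20*, *Mrpl27*, *Mrpl36*, *Mrpl39*, *Mrpl43*, *Mrpl44*, *Mrpl47*, *Mrpl50* and *Mrpl53*. Several were among the stronger peaks of the whole control list. *Mrpl53*, a subunit of the mitochondrial ribosome without a bacterial counterpart, had a control peak of 323 bases at chr6:83109559-83109881 with a log10 FDR of −156, stronger than 97.7% of the control peaks. The gene *Gm42688* shared bases with this peak on the same strand, so its assignment is uncertain. *Mrpl43* had 2 control peaks, of 503 bases with a log10 FDR of −61.7 (rank 91.7%) and of 178 bases with −6.72 (rank 46.0%). *Mrpl27*, whose bacterial counterpart reaches into the peptidyl transferase centre, had a peak of 358 bases with −48.7 (rank 89.0%). *Mrpl17* had a peak of 361 bases with −36.0, and *Mrpl4* a peak of 328 bases with −31.0, which ended on the last annotated base of the gene. None of these 5 genes had a *Wtap*-BKO peak at the authors' threshold. *Mrpl50* had 2 control peaks, of 507 bases with a log10 FDR of −24.8 and of 180 bases with −12.5. Weak control peaks were also among the 14 genes. *Mrpl47* had 2 listed peaks, of 181 and 90 bases, with log10 FDRs of −3.10 and −1.61. These overlapped at the 5′ end of the gene, so they are not separate regions. *Mrpl1*, *Mrpl36* and *Mrpl39* had 1 each, between −2.59 and −3.21. The peak of *Mrpl39* and 1 of those of *Mrpl47* were centred outside the RefSeq span of their gene.

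The 7 small subunit genes with control peaks only were *Mrps6*, *Mrps9*, *Mrps12*, *Mrps17*, *Mrps23*, *Mrps24* and *Mrps27*. In 6 of them the strongest peak had an FDR under 1e-20 and was centred within 1000 bases of the 3′ end of the gene. *Mrps27*, a pentatricopeptide repeat protein, had a peak of 718 bases at chr13:99414815-99415532 with a log10 FDR of −92.3. *Mrps24* had a peak of 240 bases with −83.1 (rank 94.3%) and a weak one of 120 bases with −2.08, which lay outside the RefSeq span and shared bases with *Urgcp*. *Mrps23* had 2 neighbouring peaks, of 361 bases with −65.4 and of 331 bases with −35.7. *Mrps12*, the counterpart of a bacterial protein that contributes to decoding accuracy, had 2 listed peaks with −29.7 and −27.6 that overlapped over most of their length, so they are not separate regions. *Mrps6* had a peak of 293 bases in 2 blocks with −29.3, and *Mrps17* a peak of 539 bases with −20.1. *Mrps9* had a single weak peak of 151 bases, with −2.77 and a fold enrichment of 14.2. The *Wtap*-BKO list held no peak on any of these genes.

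Peaks in the *Wtap*-BKO list only were found on 1 gene of each subunit, and both lay toward the 5′ side of the gene. *Mrpl2*, whose bacterial counterpart is a core protein near the peptidyl transferase centre, had a *Wtap*-BKO peak of 211 bases in 2 blocks at chr17:46646229-46647430. Its log10 FDR was −24.9 (rank 84.3%), and its centre was 162 bases from the 5′ end of the gene. *Mrps22* had a *Wtap*-BKO peak of 179 bases in 2 blocks with −5.29 (rank 43.7%), centred 3461 bases from the 5′ end. The remaining 13 genes of the table carried no peak in either list. These were *Mrpl21*, *Mrpl22*, *Mrpl23*, *Mrpl28*, *Mrpl30*, *Mrpl35* and *Mrpl48* of the large subunit, and *Mrps10*, *Mrps14*, *Mrps16*, *Mrps18b*, *Mrps33* and *Mrps36* of the small subunit.

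For genes with peaks in both lists, the strongest peak was compared by its rank. In the large subunit the control peak ranked higher for 24 of 27 genes (88.9%, interval 71.9% to 96.1%), with median ranks of 87.9% in the control and 62.4% in the *Wtap*-BKO list. In the small subunit it ranked higher for 9 of 15 genes (60.0%, interval 35.7% to 80.2%), and the median ranks were 69.3% and 77.9%. Over all symbols with peaks in both lists the control rank was the higher one for 48.8%. This share lay below the interval of the large subunit and inside that of the small subunit, and the intervals of the subunits overlapped.

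**Figure D2:**
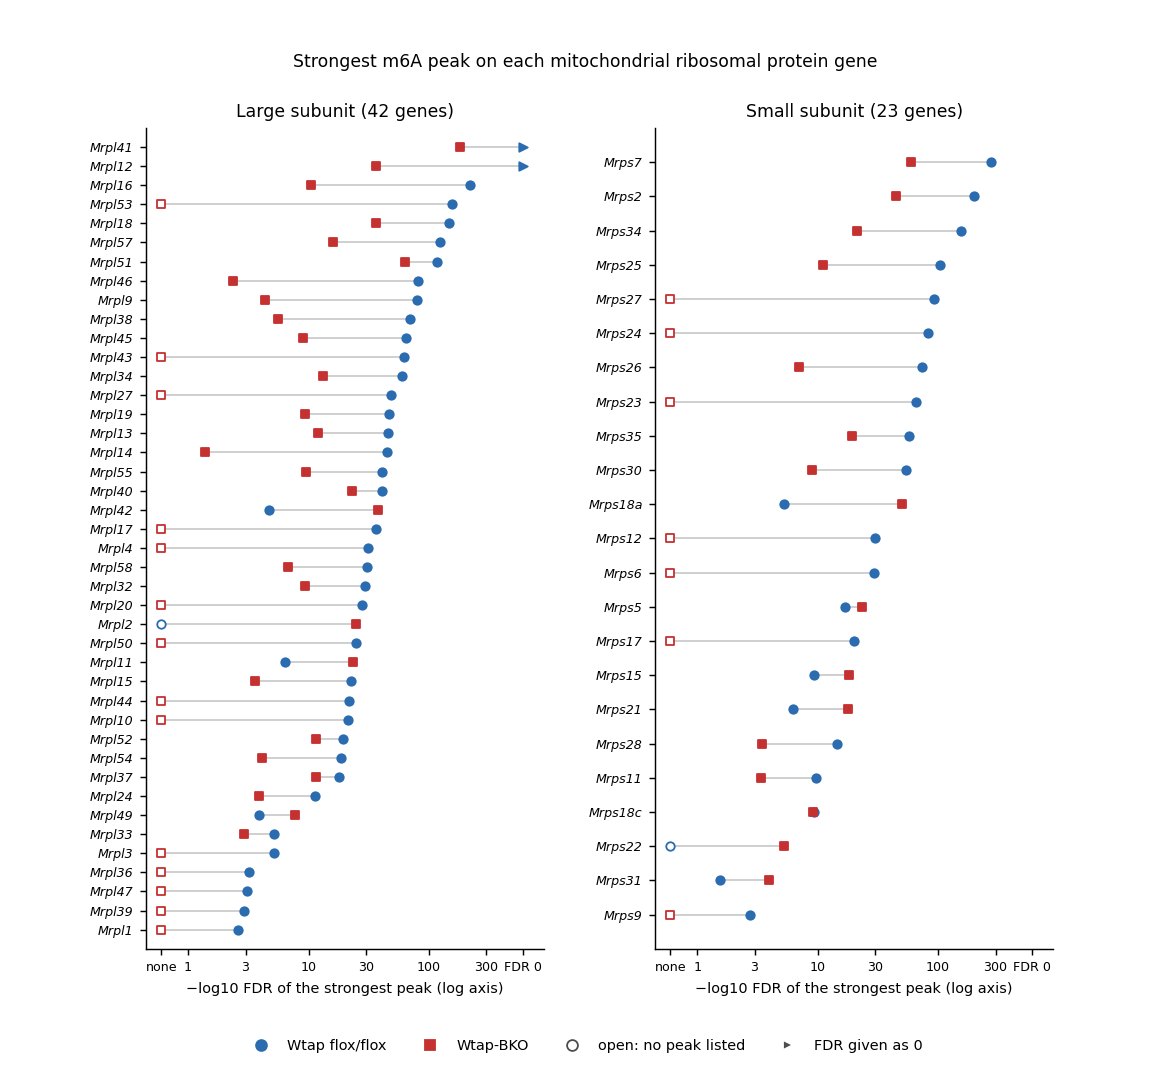
−log10 FDR of the strongest peak on each gene (x axis, log scale) in the *Wtap* flox/flox list (blue circles) and the *Wtap*-BKO list (red squares), with genes sorted by the stronger value. Open symbols mark genes without a listed peak and the 2 triangles an FDR given as 0; *Wtap* flox/flox symbols lie to the right for most large subunit genes, and 14 large and 7 small subunit genes have an open *Wtap*-BKO symbol.

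The control list gave an FDR of 0 for 2 large subunit peaks, on *Mrpl12* and *Mrpl41*. *Mrpl12*, a protein of the ribosomal stalk that recruits translation factors, had this peak of 502 bases at its 3′ end, with a fold enrichment of 5.84. The *Wtap*-BKO peak there covered 413 bases, had a log10 FDR of −36.6 (rank 89.8%) and a fold enrichment of 1.64. At the 5′ end of *Mrpl12* both lists held the same 178 bases, with −6.58 in the control and −6.81 in the *Wtap*-BKO list. On *Mrpl12* the 3′ peak was thus the lower one in *Wtap*-BKO iBAT, and the 5′ peak was alike in both lists. *Mrpl41* had a control peak of 562 bases with a fold enrichment of 8.73, and a *Wtap*-BKO peak of 445 bases within it with −181 (rank 99.0%) and a fold enrichment of 4.09.

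Other large subunit genes showed the same order. *Mrpl16* had −220 over 355 bases in the control and −10.4 over 178 bases in the *Wtap*-BKO list, and the ranks were 98.6% and 64.6%. *Mrpl18* had −147 over 358 bases and −36.2 over 328 bases. *Mrpl9* had the longest control peak of all these genes, 892 bases at chr3:94447817-94448708 with −79.1 (rank 93.9%). Of these 892 bases the *Wtap*-BKO peak covered 150, from the same first base, with −4.35 (rank 36.0%). *Mrpl57* had a control peak of 300 bases with −124 (rank 96.7%) where the *Wtap*-BKO peak had 180 bases and −15.9 (rank 75.5%). A second pair on *Mrpl57*, at the 5′ end, went the other way, with 91 bases and −2.53 (rank 10.3%) in the control and 120 bases and −14.2 (rank 72.6%) in the *Wtap*-BKO list.

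The small subunit genes with the strongest control peaks showed the same order. *Mrps7*, whose bacterial counterpart organises the head of the small subunit, had a control peak of 829 bases with −275 (rank 99.0%). In the *Wtap*-BKO list 2 separate peaks lay inside it, of 297 bases with −59.8 and of 178 bases with −3.64. *Mrps2* had 4 control peaks. The strongest covered 477 bases with −199 and a fold enrichment of 10.9, and the *Wtap*-BKO peak within it covered 269 bases with −45.1 and a fold enrichment of 2.26. The other 3 control peaks of *Mrps2*, with −2.80, −3.83 and −5.06, had no *Wtap*-BKO peak on them. *Mrps25* had −104 over 360 bases in the control and −11.1 over 240 bases in the *Wtap*-BKO list, while a second, weak pair went from −2.05 over 121 bases to −9.11 over 181 bases. *Mrps26* had −74.0 over 538 bases and −7.05 over 180 bases. *Mrps30* had a control peak with −54.0 over 449 bases where the *Wtap*-BKO peak had −9.01 over 270 bases, and a second control peak near the 5′ end with −9.07 that was not found. *Mrpl19*, *Mrpl24*, *Mrpl32*, *Mrpl33*, *Mrpl37*, *Mrpl38*, *Mrpl40*, *Mrpl52*, *Mrpl54* and *Mrps35* had 1 overlapping peak in each list, with the higher rank in the control. Their log10 FDR lay between −5.17 (*Mrpl33*) and −69.5 (*Mrpl38*) in the control and between −2.90 (*Mrpl33*) and −22.8 (*Mrpl40*) in the *Wtap*-BKO list.

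The opposite order was seen on 9 genes. *Mrps18a*, one of several mammalian homologues of a single bacterial protein, had a weak control peak of 121 bases at its 5′ end with −1.77 (rank 1.08%). The *Wtap*-BKO peak over it had 361 bases in 3 blocks and −50.6 (rank 93.1%), the longest *Wtap*-BKO peak of the small subunit, while a second control peak near the 3′ end of *Mrps18a*, with −5.24, was not found. *Mrps18c*, a related gene, had the same 181 bases in both lists, with −9.33 in the control and −9.18 in the *Wtap*-BKO list, where the rank was higher (54.9% and 61.4%). *Mrps21* had the same 237 bases in 4 blocks in both, with −6.30 and −17.9. *Mrpl42* had 2 pairs. The pair toward the 5′ end went from −4.70 over 151 bases to −37.9 over 210 bases, and the other from −2.64 over 121 bases to −9.84 over 181 bases. *Mrpl11*, at its 5′ end, had −6.38 and −23.5, and *Mrpl49* had −3.91 and −7.69. *Mrps15* had −9.29 over 90 bases and −18.3 over 120 bases, and a second *Wtap*-BKO peak near the 5′ end with −3.51. *Mrps5* had −16.8 and −23.6, and *Mrps31* is given below. By the prefix of their names, 3 of these 9 genes are of the large and 6 of the small subunit.

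The position of the peaks along the gene was compared between the lists. Distances were taken from the peak centre to the ends of the RefSeq gene on GRCm38, since stop codons and sequences were not analysed here, and a peak within 1000 bases of both ends was given to the nearer one. In the control list 45 of 81 peaks were near the 3′ end and 11 near the 5′ end. In the *Wtap*-BKO list 19 of 56 were near the 3′ end and 19 near the 5′ end. By subunit, the 3′ peaks went from 25 to 14 in the large and from 20 to 5 in the small subunit, and the 5′ peaks from 7 to 12 and from 4 to 7. With each window counted on its own over the peaks inside the genes, 57.7% of control (interval 46.6% to 68.0%) and 38.2% of *Wtap*-BKO peaks (26.5% to 51.4%) lay within 1000 bases of the 3′ end, and 19.2% (12.0% to 29.3%) and 34.5% (23.4% to 47.7%) of the 5′ end. The intervals of the lists overlapped at both ends. Counted in this same way, 23.1% of control and 20.6% of *Wtap*-BKO peaks over all genes lay near the 3′ end, and 12.8% and 14.6% near the 5′ end. On genes of up to 20000 bases these shares were 33.7% and 29.6%, and 18.5% and 21.9%. Over all genes, with a peak given to the nearer end, the shares were 20.3% of control and 18.1% of *Wtap*-BKO peaks near the 3′ end and 11.0% and 12.7% near the 5′ end. These genes are short, with a median span of 7690 bases, and on genes of up to 20000 bases the shares were 32.4% and 28.2% near the 3′ end and 17.0% and 20.4% near the 5′ end.

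**Figure D3:**
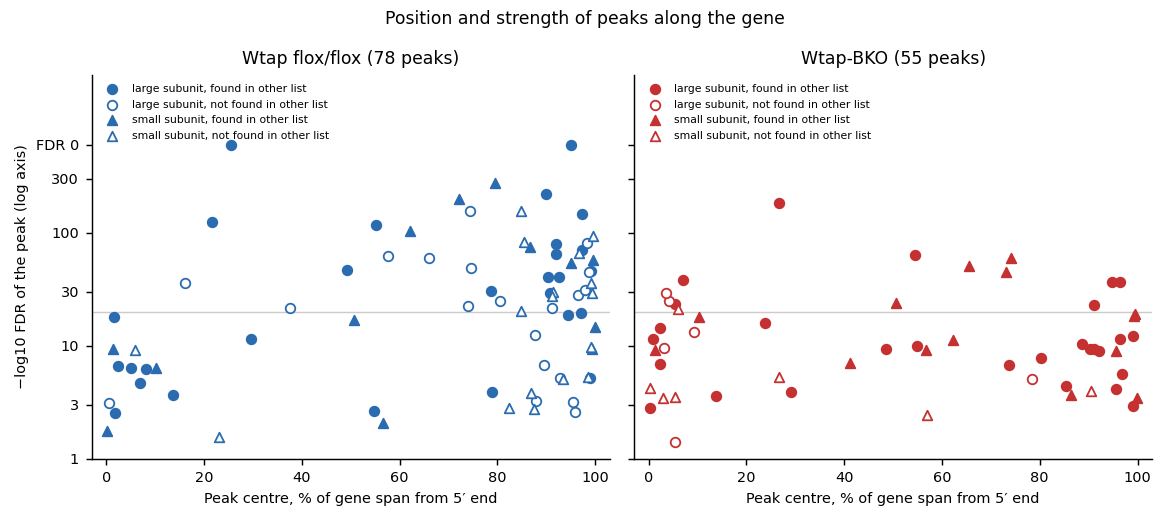
Position of the peak centre along the gene (x axis, % of the gene span from the 5′ end) against the −log10 FDR of the peak (y axis, log scale, with FDR 0 at the top) for the 78 *Wtap* flox/flox (left) and 55 *Wtap*-BKO peaks (right) inside the gene span. Filled symbols were found in the other list and open ones were not, circles are large and triangles small subunit genes, and the grey line is an FDR of 1e-20; 25 of the open control symbols lie near the 3′ end and 9 of the open *Wtap*-BKO symbols near the 5′ end.

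Of all control peaks on these genes 41 of 81 were found in the *Wtap*-BKO list (50.6%, interval 40.0% to 61.2%), 28 of 50 in the large and 13 of 31 in the small subunit, against 67.8% of all control peaks. Near the 3′ end 20 of 45 were found (44.4%, interval 30.9% to 58.8%), against 62.9% of all control peaks at that end. By subunit these were 14 of 25 in the large and 6 of 20 in the small subunit. Near the 5′ end 9 of 11 were found (81.8%, interval 52.3% to 94.9%), against 72.0%. In the other direction, 42 of 56 *Wtap*-BKO peaks were found in the control list (75.0%, interval 62.3% to 84.5%), against 68.0% of all *Wtap*-BKO peaks. All 19 of the *Wtap*-BKO peaks near the 3′ end were found (interval 83.2% to 100%), against 70.2%, and 10 of the 19 near the 5′ end (52.6%, interval 31.7% to 72.7%), against 62.1%. Of the 14 *Wtap*-BKO peaks that were not found, 9 were near the 5′ end and 0 near the 3′ end, and 11 of the 13 genes that carried them had a control peak elsewhere.

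*Mrpl51* and *Mrpl55* show this arrangement. *Mrpl51* had a control peak of 390 bases with −117, centred 982 bases from the 3′ end, and a *Wtap*-BKO peak of 360 bases within it with −63.2. A further *Wtap*-BKO peak of 181 bases with −28.9 (rank 86.6%) was centred 80 bases from the 5′ end, where the control list had none. *Mrpl55* had a control peak of 235 bases with −40.8 near the 3′ end and a *Wtap*-BKO peak of 177 bases with −9.25 within it. Its second *Wtap*-BKO peak, of 177 bases with −9.55, was centred 117 bases from the 5′ end. *Mrps25* also had a *Wtap*-BKO peak of 91 bases with −4.17 at the 5′ end that was not found in the control list. *Mrpl13* was different. It had pairs at the 3′ end (−45.4 in the control and −12.1 in the *Wtap*-BKO list) and toward the 5′ end (−6.18 and −2.80), and its remaining *Wtap*-BKO peak, with −5.04, lay between them. *Mrpl45* had 2 control peaks, of 359 bases with −64.0, where the *Wtap*-BKO peak had 150 bases and −9.00, and of 91 bases with −3.19, which was not found. *Mrpl15* lost its stronger control peak, with −22.4, and kept a pair toward the 5′ end with −3.63 and −3.58.

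In 6 genes with peaks in both lists no base was shared, 3 of the large (*Mrpl14*, *Mrpl34* and *Mrpl46*) and 3 of the small subunit (*Mrps11*, *Mrps31* and *Mrps34*), or 6 of 42, where 6.21% of all symbols with peaks in both lists had no control peak that was found. In 5 of the 6 the control peak was near the 3′ end and the *Wtap*-BKO peak was centred within 1000 bases of the 5′ end or, on *Mrpl46*, upstream of it. *Mrpl14* had a control peak of 327 bases with −45.1 that ended on the last base of the gene, and a *Wtap*-BKO peak of 90 bases in 2 blocks with −1.39 (rank 0.139%), which spanned 9078 bases of the gene and was centred 675 bases from its 5′ end. *Mrpl34*, which spans only 828 bases, had a control peak of 203 bases with −60.1 and a *Wtap*-BKO peak of 88 bases with −13.1, centred 77 bases from the 5′ end. *Mrps34* had a control peak of 449 bases with −154 (rank 97.6%) and a *Wtap*-BKO peak of 91 bases with −21.1 (rank 81.3%), centred 71 bases from the 5′ end. *Mapk8ip3* on the opposite strand shared bases with the control peak of *Mrps34*. *Mrps31* was the exception, with weak peaks farther than 1000 bases from both ends, 1 of 91 bases in the control list with −1.54 and 2 of 150 and 91 bases in the *Wtap*-BKO list with −2.44 and −3.97. A further gene, *Mrpl58*, which encodes a peptidyl-tRNA hydrolase of the large subunit, came close to this class, since its control peak of 239 bases with −30.5 shared 1 base with its *Wtap*-BKO peak of 180 bases with −6.78.

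*Mrpl46* and *Mrps11* are neighbours on chromosome 7, transcribed in opposite directions from starts 41 bases apart in the RefSeq table. Each had a control peak at its own 3′ end, of 414 bases with −81.2 on *Mrpl46* and of 179 bases with −9.67 on *Mrps11*. The *Wtap*-BKO list held instead a peak of 149 bases with −2.37 for *Mrpl46* (chr7:78783354-78783502) and one of 180 bases with −3.42 for *Mrps11* (chr7:78783327-78783655). These share bases on opposite strands around the common start region. The labels do not say that the libraries marked strand, so the reads behind these 2 peaks cannot be assigned to one gene or the other.

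Strong control peaks went missing more often on these genes than elsewhere. Of 43 control peaks with an FDR under 1e-20, a limit chosen after the data were seen, 22 were not found in the *Wtap*-BKO list (51.2%, interval 36.8% to 65.4%), against 10.7% of all control peaks that strong. These were 13 of 28 in the large (46.4%) and 9 of 15 in the small subunit (60.0%), where 2 of the 9 are the overlapping peaks of *Mrps12*. The intervals of both subunits, 29.5% to 64.2% and 35.7% to 80.2%, lie above the background. They count each peak as independent, although *Mrps12* and *Mrps23* each gave 2 of the 9. With a limit chosen from these data, they are a description and not a test. By position, 17 of the 31 strong control peaks near the 3′ end, 5 of the 10 between the ends and 0 of the 2 near the 5′ end were not found, so the share near the 3′ end was about that between the ends. Of 14 *Wtap*-BKO peaks that strong, 3 were not found in the control list (21.4%, interval 7.57% to 47.6%), against 2.47% of all, and these were the 5′ peaks of *Mrpl2*, *Mrpl51* and *Mrps34*.

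The median control peak covered 268 exonic bases in the large subunit (quartiles 179 and 357) and 262 in the small subunit (179 and 384), and the median *Wtap*-BKO peak 180 in both (150 and 210, and 120 and 269). Over all peaks the medians were 240 and 210. Among 41 overlapping pairs, each a control peak with the *Wtap*-BKO peak that shared most bases, the control peak was longer in 28 (68.3%, interval 53.0% to 80.4%), against 47.8% of all 12483 pairs. By subunit these were 21 of 28 (75.0%, interval 56.6% to 87.3%) and 7 of 13 (53.8%, interval 29.1% to 76.8%). The control peak had the higher rank by FDR in 28 of the 41, against 44.0% of all pairs. Near the 3′ end the control peak was longer in 18 of 20 pairs (90.0%, interval 69.9% to 97.2%), where the value over all genes was 52.4%, and near the 5′ end in 3 of 9, where it was 33.1%. The pairs near the 3′ end had a median length of 314 bases in the control and 179 in the *Wtap*-BKO list.

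**Figure D4:**
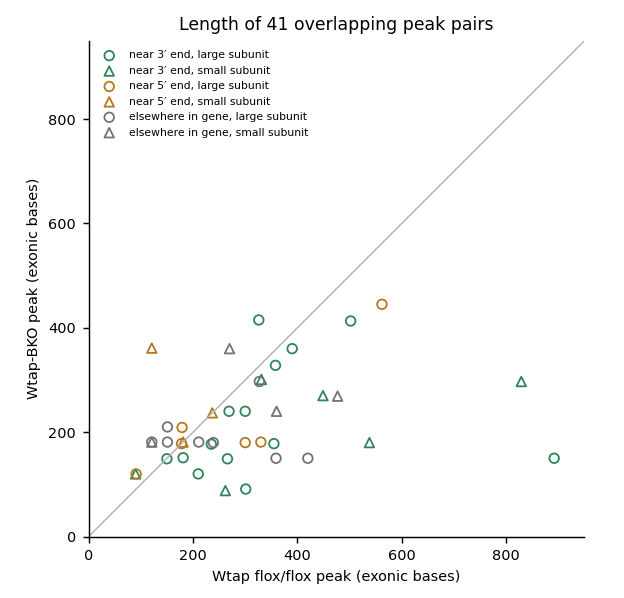
Exonic length in bases of 41 overlapping peak pairs, with the *Wtap* flox/flox peak on the x axis, the *Wtap*-BKO peak on the y axis and the line of equal length in grey; colours give the position on the gene and shapes the subunit. Of the 20 pairs near the 3′ end 18 lie below the line, where the control peak is longer, with *Mrpl9* (892 and 150 bases) and *Mrps7* (829 and 297 bases) farthest to the right.

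The longest and shortest peaks give the range. Control peaks covered 90 to 892 bases in the large and 90 to 829 in the small subunit, with the shortest on *Mrpl47*, *Mrps2* and *Mrps15*. *Wtap*-BKO peaks covered 88 to 445 and 88 to 361 bases, with the shortest on *Mrpl34* and on *Mrps28*, where 262 control bases with −14.6 stood against 88 *Wtap*-BKO bases with −3.43. Peaks in 2 or more blocks made up 19 of 81 in the control and 21 of 56 in the *Wtap*-BKO list. Over all peaks they made up 2840 of 18400 and 3703 of 18693, so the *Wtap*-BKO share was the higher one there too. Fold enrichment was low on these genes in both lists. Its median was 3.36 in the large and 4.22 in the small subunit in the control list, where it was 6.58 over all peaks, and 2.16 and 2.40 in the *Wtap*-BKO list, where it was 4.65. The FDR was nevertheless stronger than typical, with a median rank of 74.7% in the control and 61.9% in the *Wtap*-BKO list.

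Genes that work with the mitochondrial ribosome were counted from lists set alongside. One list held ribosomal proteins that go by other names (*Dap3*, *Ptcd3*, *Chchd1*, *Aurkaip1* and *Gadd45gip1*) and *Oxa1l*, which inserts the translated proteins into the inner membrane, and all 6 had peaks in both lists. *Oxa1l* went from a log10 FDR of −307 to −21.7, *Gadd45gip1* from −66.4 to −7.56 and *Ptcd3* from −39.0 to −7.28, while *Chchd1* had −10.9 in both. Of 21 assembly and rRNA factors with a peak, 8 were in the control list only (38.1%, interval 20.8% to 59.1%), 13 in both and 0 in the *Wtap*-BKO list only. The 8 included the GTPases *Eral1* (−49.1) and *Gtpbp10* (−37.0) and the rRNA methyltransferase *Tfb1m* (−29.7). Of 14 translation factors 2 were in the control list only, *Gfm2* and *Guf1*, 11 in both and 1, *Mtrf1*, in the *Wtap*-BKO list only. Over all symbols 13.5% were in the control list only and 13.2% in the *Wtap*-BKO list only. The translation factor intervals, 4.01% to 39.9% and 1.27% to 31.5%, held these shares. Of 17 assembly and rRNA factors with 1 control peak 7 had no *Wtap*-BKO peak (interval 21.6% to 64.0%), which held the 25.4% of all such symbols. Cytosolic ribosomal protein genes were unlike the mitochondrial ones. Only 22 of 83 had a peak, 3 in the control list only (13.6%, interval 4.75% to 33.3%), 11 in both and 8 in the *Wtap*-BKO list only (36.4%, interval 19.7% to 57.0%). The last interval does not overlap that of the mitochondrial ribosomal genes.

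Markers of cell types were set beside these counts. All 12 brown adipocyte markers, *Ucp1* among them, had control peaks, and 11 had *Wtap*-BKO peaks, with *Elovl3* the exception. In the *Wtap*-BKO list only were 2 of 7 macrophage, 2 of 3 T/B lymphocyte and 4 of 7 skeletal muscle markers with a peak, and 0 of each in the control list only. The share of all symbols in the *Wtap*-BKO list only, 13.2%, lay inside the macrophage interval (8.22% to 64.1%). It lay below the lymphocyte interval (20.8% to 93.9%) and below the muscle interval. The lymphocyte interval rests on the 3 of 8 listed markers that had a peak. For the control list only, each of these intervals held the 13.5% of all symbols. All 6 fibroblast markers had peaks in both lists, and the strongest peak of each had the smaller FDR in the *Wtap*-BKO list. Among brown adipocyte markers the smaller FDR was in the control list for *Ucp1*, *Prdm16*, *Ppargc1a*, *Dio2*, *Adrb3*, *Pparg* and *Ebf2*. It was in the *Wtap*-BKO list for *Cidea* and *Plin1*, and *Fabp4* and *Adipoq* had an FDR of 0 in both. Over these lists the control and *Wtap*-BKO peaks numbered 36 and 33 on brown adipocyte, 9 and 20 on macrophage, 1 and 5 on lymphocyte, 3 and 10 on muscle and 9 and 10 on fibroblast markers. The part of other cell types in the result was not tested. Few peaks were of uncertain origin. On the opposite strand 3 control and 3 *Wtap*-BKO peaks shared bases with a listed peak, the 3′ peak of *Mrpl12* in both lists among them, and 3 and 1 overlapped another gene's peak on their own strand. The gene table holds 6 pseudogenes named after these genes, and how reads shared with them were assigned is not known.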

How the data were processed

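Peak lists of MeRIP-seq of iBAT were analysed, 1 list per genotype, each made from 1 IP and 1 input sample (4 samples in all). Per the labels, reads were processed with fastp 0.19.11, BWA 0.7.12 and HOMER 4.9.1 on GRCm38.p6. The study's methods name MACS2 as the peak caller, while the column layout is that of exomePeak, and which one made the lists was not settled. For each peak the authors deposited a p-value, log10-transformed p-values and FDRs (here called scores) and the fold enrichment of IP over input as a ratio. The largest FDR was 0.0447 in the control and 0.0479 in the *Wtap*-BKO list.

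Blocks of each peak gave its exonic bases. Peaks were matched by strand and at least 1 shared exonic base. The code was run on simulated copies of the control peaks that were kept, shortened or removed (18400 of 18400 right). No copy was shifted off its peak or put on the other strand, so this run checks neither the strand rule nor near misses. Ranks were taken within a list. Gene ends were those of RefSeq genes (table for GRCm38.p6), and there 98.3% of control and 98.2% of *Wtap*-BKO peak centres with a matched symbol lay inside the gene. No transcript annotation or sequence was used here, so distances from gene ends replace those from stop codons. With 1 pooled sample per genotype no test was run. Alternatives were thresholds on the FDR (1e-05) and the fold (2), 50% of bases shared, any peak on the same gene, a window of 500 bases, the span as length, the peak base nearest to the 3′ end, Ensembl identifiers, and leaving out peaks shared with another gene.

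All members were named. Full values were given, per subunit, for the 5 genes with the smallest FDR in each class, genes with several peaks in a list, genes without a shared base, and the longest and shortest peaks. The members, the gene lists and the markers were chosen with earlier results of these data known. *Ict1*, an older symbol of *Mrpl58*, was left out of the list of other ribosomal proteins. Python 3.11.15, numpy 2.4.6, pandas 2.3.3, scipy 1.17.1 and matplotlib 3.10.9 were used.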

Additional observations from a re-analysis of the deposited data

How the results depend on the processing

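No paired analysis was possible because each genotype had 1 pooled sample, and for the same reason no sample could be left out. Of 68 values under alternatives, 56 stayed within a ratio of 1.5 of the reported ones and 12 moved further. That ratio allows wide shifts. With a fold enrichment of at least 2, large subunit genes in the control list only went from 14 to 21. With an FDR under 1e-05, those in both lists went from 27 to 18. With an FDR under 1e-05 the genes of the large subunit in the *Wtap*-BKO list only numbered 3. With a fold enrichment of at least 2, the large subunit had 15 genes in both lists and 4 in the *Wtap*-BKO list only, and the small subunit had 11 in the control list only, 9 in both and 3 in the *Wtap*-BKO list only. When any peak on the same gene counted as found, 97.1% of *Wtap*-BKO peaks of the large subunit were found, and in the small subunit 67.7% of control and 95.2% of *Wtap*-BKO peaks. Without peaks that share bases with another gene, 2 genes of the small subunit were in the *Wtap*-BKO list only. Among genes with 1 control peak, a choice made after seeing the data, 4 genes of the small subunit were in the control list only. Measured from start to end, the median *Wtap*-BKO peak of the small subunit had a length of 297 bases. The last follows from counting introns. Where a threshold or the leaving out of peaks removed a gene's peaks from 1 list, that gene changed class or dropped out. For the other moves the cause was not tested. The lists carry no read depth, so a weak peak that failed the threshold cannot be told from an absent one.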
